A study of Mus musculus with 6 samples.

Results

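The genes described here encode the machinery of the lysosome: 52 mouse genes chosen as a list and found by their symbol among the 15903 genes tested. They comprise 29 soluble proteins of the lysosomal lumen (26 hydrolases and 3 non-enzymatic partners), 8 lysosomal membrane proteins and 15 subunits of the V-ATPase, the proton pump. All 52 passed the filter on low counts, and the lowest count of any of them in any library was 95. RNA was sequenced from bone-marrow-derived macrophages (BMDMs) of 3 mice, each cultured once as an unstimulated control and once with 62 mM excess NaCl for 24 h, which gives 3 control and 3 NaCl libraries. Both groups came from Cx3cr1GFP mice on a C57BL/6J background, whose age is not given in the sources used here, and both were grown from bone marrow with 10 ng/ml M-CSF for 7 days. Only adherent cells were taken, and a mannitol control for osmolarity was not analysed here, so sodium chloride and osmolarity cannot be told apart.

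Lysosomes break down material that macrophages take up or recycle from their own cytoplasm. Soluble hydrolases, most of them delivered by mannose-6-phosphate receptors, cleave proteins, glycans and lipids at acidic pH, which the V-ATPase creates by pumping protons with its cytosolic V1 sector (ATP hydrolysis) and its membrane-embedded V0 sector (proton passage). Heavily glycosylated membrane proteins such as LAMP1 line the organelle, and the transcription factors TFEB, TFE3 and MITF bind E-box-like sequences near many lysosomal genes.

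The libraries held between 4088065 (NaCl replicate 3) and 20123570 (control replicate 3) counts. All 7 macrophage markers checked were detected in all 6 libraries, and their summed level was 13626 to 15569 CPM (counts scaled to a common library size) in controls and 22762 to 29817 CPM in NaCl libraries, without overlap. The markers went both ways. In edgeR with the block Lyz2, which holds most of the sum, Csf1r and Cd14 rose by 0.95, 0.72 and 1.16 on the log2 scale. Their adjusted p in edgeR were 1.27e-05, 0.000298 and 3.04e-07 (without the block 0.0424, 0.0523 and 0.00699). Mrc1 fell by 0.98 (edgeR adjusted p 1.4e-05, without the block 0.505), and its groups overlapped. Adgre1, Itgam and Fcgr1 had -0.20, 0.07 and -0.08 and did not pass. The summed level of 11 neutrophil markers was 253 to 544 CPM in controls and 274 to 392 CPM with NaCl. All 11 had negative fold changes, but 3 were lower in mouse 1, 10 in mouse 2 and 10 in mouse 3. In 3 of 3 mice 3 were lower (27.3%, beside 23.4% of all genes), and 0 had groups without overlap (19.0% of all genes). Ngp and Mpo (18.2%, beside 8.90% of all genes) fell in edgeR with the block by 0.56 and 0.73 on the log2 scale (edgeR adjusted p 0.0189 and 0.0245, without the block 0.355 and 0.451). DESeq2 with the block called neither (adjusted p 0.0664 and 0.141). Both had the direction of the 4 lysosomal genes called lower below. Those 4 were lower in 3 of 3 mice, but Ngp was higher in mouse 1 (0.07 on the log2 scale). The summed level of 5 osteoclast markers was 174 to 216 CPM in controls and 170 to 244 CPM with NaCl, and the dendritic cell and the lymphoid, erythroid and stromal markers, 6 of these last 9 with too few counts to be tested, stayed at or below 5.23 CPM. The part of these markers in the results below was not tested. In bulk RNA, fewer cells of a type and less RNA per cell cannot be told apart.

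With excess NaCl, 47 of the 52 lysosomal genes had a fold change whose 95% interval lay within 1.5-fold of control in either direction, and the 4 that changed were lower. With the mouse as a block in edgeR, 4 of the 29 soluble members fell (Psap, Naglu, Ctsd and Hexa, by 0.49, 0.45, 0.41 and 0.38 on the log2 scale) and none rose, whereas 0 of the 8 membrane proteins and 0 of the 15 pump subunits passed an adjusted p of 0.05. The 4 calls are 7.69% of the 52 members, beside 8.90% of all 15903 genes tested (4.60% higher, 4.30% lower) and 13.4% of the 5757 genes (7.12% higher, 6.25% lower) with a mean level at or above that of the lowest member. At an unadjusted p under 0.05 in edgeR, 10 soluble members (9 lower, 1 higher), 0 membrane proteins and 3 pump subunits (all lower) passed, in total 25% of the members beside 22.1% of all genes and 29.2% of the 5757. Without the block, edgeR called 0 of the 52 members (lowest adjusted p 0.251), 0.654% of all genes and 0.990% of the 5757. At an unadjusted p under 0.05 that fit passed 5 members, 12.6% of all genes and 15.0% of the 5757. DESeq2 with the block called the same 4 members lower, beside 5.07% of all genes and 9.87% of the 5757 in either direction. Of the 4 calls, 0 remained when either mouse 1 or mouse 3 was left out, and 4 remained without mouse 2.

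**Figure D1:**
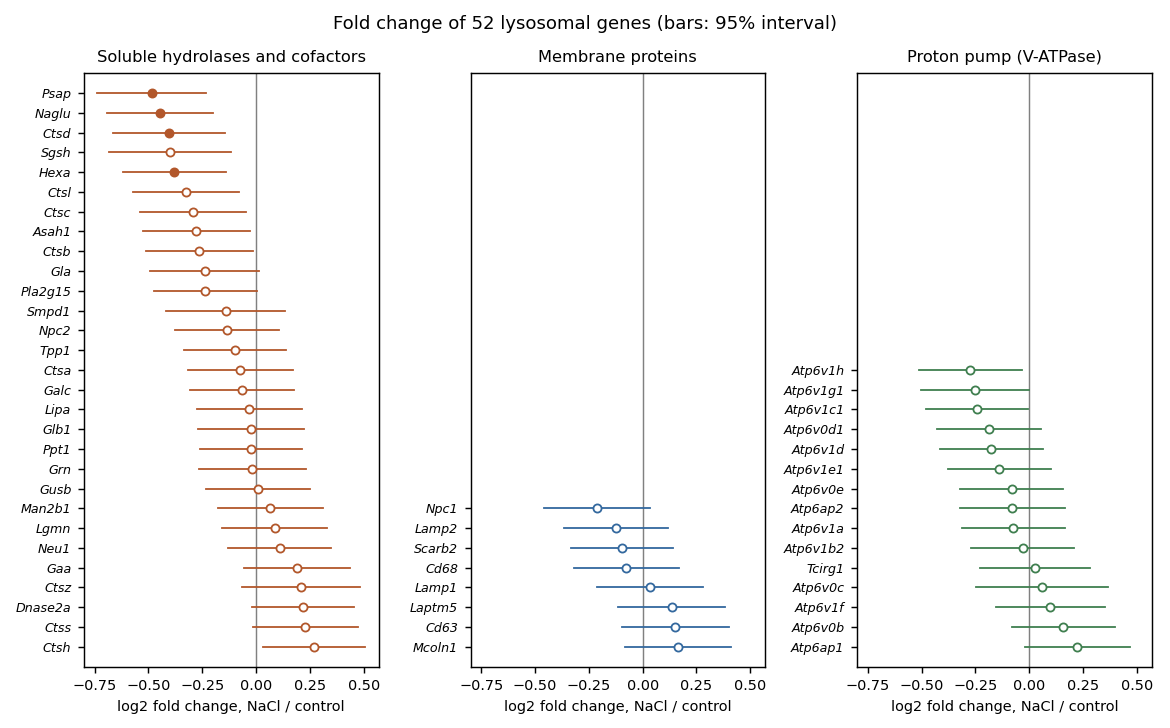
The log2 fold change of NaCl against control (x axis) of the 52 genes (y axis), with the 95% interval from the edgeR fit with the mouse as a block (n = 3 mice) and filled points at an adjusted p under 0.05. The 4 filled points are Psap, Naglu, Ctsd and Hexa, and the membrane and pump panels hold open points only.

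The fold changes stayed small. They ranged from -0.49 to 0.27 for the soluble members, from -0.21 to 0.16 for the membrane proteins and from -0.27 to 0.22 for the pump, with standard errors (SE) of 0.11 to 0.15 and medians of -0.07, -0.02 and -0.08, beside -0.02 for all genes tested. The 95% interval lay within 1.5-fold in either direction for 8 of 8 membrane proteins, 15 of 15 pump subunits and 24 of 29 soluble members, compared with 43.8% of all genes and 80.1% of the 5757 genes of like level. Without the block these counts were 8, 14 and 19, beside 31.8% and 63.6%. In 20 of the 52 genes (38.5%) the level was lower with NaCl in 3 of 3 mice and in 9 (17.3%) it was higher in 3 of 3, against 23.4% and 20.1% of all genes and 26.5% and 24.2% of the 5757. The control and NaCl libraries did not overlap for 13 members (25%), 7 soluble, 1 membrane and 5 pump, beside 19.0% of all genes and 21.7% of the 5757. The pairs differed, since 29 of the 52 members were lower in mouse 1, 28 in mouse 2 and 41 in mouse 3, whose NaCl library was the shallowest. Of all 15903 genes, 8274, 7771 and 8671 were lower in mice 1, 2 and 3, and of the 5757, 2806, 2964 and 3092. The cause of the difference between the mice was not tested.

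Lysosomal genes made up a sizeable part of the RNA of these cells. In replicates 1, 2 and 3, the 52 genes took 6.97, 7.02 and 6.56% of all counts without and 6.49, 6.11 and 5.54% with NaCl. Each NaCl library lay below each control library, with a mean of 6.85 ± 0.252% in controls and 6.05 ± 0.478% with NaCl (SD, n = 3). This difference was lower in 3 of 3 mice, and an exact sign-flip test over 3 pairs cannot go below a p of 0.25. The soluble members held 5.67 ± 0.232% and 4.86 ± 0.416% of the counts, the membrane proteins 0.642 ± 0.0268% and 0.654 ± 0.0478%, and the pump 0.533 ± 0.00772% and 0.528 ± 0.0262%, in controls and NaCl. Psap, Ctsb and Ctsd, a trio chosen after their values were seen, together differed by -0.773 percentage points and the remaining 49 genes by -0.03 percentage points, of -0.803 in all. The share of one gene depends on the level of all others, including the macrophage markers given above.

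**Figure D2:**
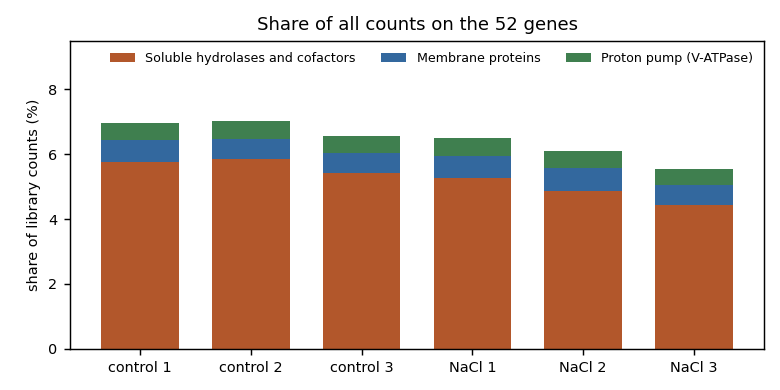
The share of each library's counts (y axis, %) on the soluble, membrane and pump genes in the 3 control and 3 NaCl libraries (x axis). The whole bars reach 6.56 to 7.02% in controls and 5.54 to 6.49% with NaCl, and the part of the soluble members differs most.

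Psap encodes prosaposin, the precursor of the saposins that present sphingolipids to lysosomal hydrolases. It was the most abundant of the 52 genes per length in controls, at 4045 ± 308 RPKM (CPM per kilobase of exon, SD, n = 3). Psap (ENSMUSG00000004207.15, chromosome 10) was at 11543.8, 11629.8 and 10125.7 CPM in controls and at 9200.3, 8396.8 and 6416.7 CPM with NaCl (mice 1, 2 and 3, in this order here and below). The groups did not overlap and each mouse was lower with NaCl. In edgeR with the block, Psap fell by 0.49 on the log2 scale (SE 0.12, adjusted p 0.0109; without the block 0.281), a change of -28.6%.

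Ctsd encodes cathepsin D, the major lysosomal aspartic protease, and was second in level per length at 3848 ± 571 RPKM in controls. Ctsd (ENSMUSG00000007891.17, chromosome 7) was at 7590.7, 10233.0 and 9316.5 CPM in controls and at 6879.7, 7668.7 and 5891.6 CPM with NaCl. Each mouse was lower with NaCl, but the groups overlapped, since control replicate 1 lay below NaCl replicate 2. Ctsd fell by 0.41 on the log2 scale in edgeR with the block (SE 0.13, adjusted p 0.0428, 0.349 without the block). In GENCODE M21, 34.4% of its exonic bases overlap another gene model on the same strand, Gm49369, so the authors' counting could have left out reads there.

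Hexa and Naglu encode glycosidases, the alpha subunit of beta-hexosaminidase, which degrades GM2 ganglioside, and alpha-N-acetylglucosaminidase, which degrades heparan sulfate. Hexa (ENSMUSG00000025232.9, chromosome 9) was at 866.8, 772.6 and 807.4 CPM in controls and at 713.9, 585.1 and 586.0 CPM with NaCl. It fell by 0.38 on the log2 scale in edgeR with the block (SE 0.12, adjusted p 0.0382, 0.284 without the block). The groups did not overlap for Hexa, of whose exonic bases 12.8% overlap Tmem202 on the opposite strand. Naglu (ENSMUSG00000001751.10, chromosome 11) was at 123.6, 135.1 and 120.8 CPM in controls and at 103.3, 99.62 and 76.66 CPM with NaCl. It fell by 0.45 on the log2 scale in edgeR with the block (SE 0.12, adjusted p 0.0169, 0.251 without the block). Its groups did not overlap either, and the difference was largest in mouse 3, at -0.65 on the log2 scale.

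**Figure D3:**
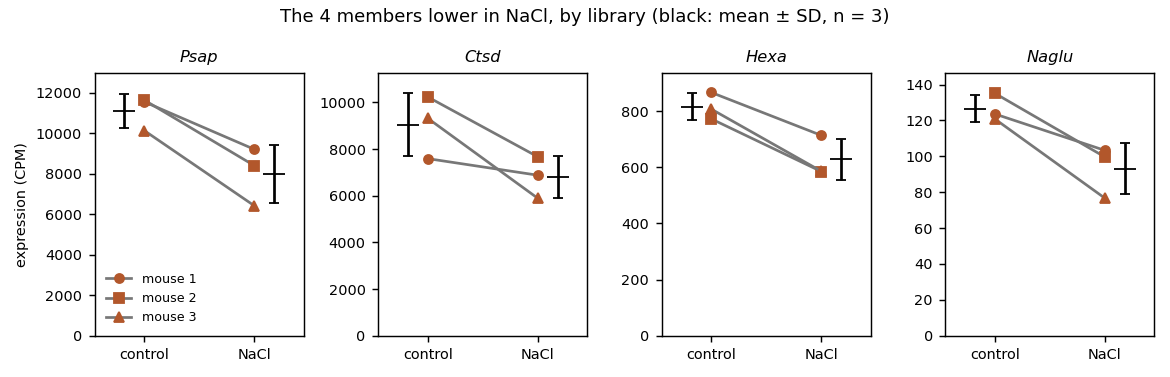
Expression in CPM (y axes from 0) of Psap, Ctsd, Hexa and Naglu in control and NaCl libraries (x axes), with lines that join the 2 libraries of a mouse and black bars for the mean ± SD (n = 3). All 12 lines go down, from 11629.8 to 8396.8 CPM for Psap in mouse 2, for example.

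Lysosomal genes are known for E-box-like promoter sequences, and a shared regulation of the 4 genes called lower was not tested. The 250 bases before their transcription start are shown, from RefSeq on build GRCm38.p6, 5′ to 3′ along the gene's strand. Each CACGTG, the E-box core, in these windows is in capitals. They are Psap chr10:60277378-60277627 (plus strand, the first of its 2 starts), Ctsd chr7:142387828-142388077 (minus strand), Hexa chr9:59539290-59539539 (plus strand) and Naglu chr11:101069844-101070093 (plus strand).
Psap: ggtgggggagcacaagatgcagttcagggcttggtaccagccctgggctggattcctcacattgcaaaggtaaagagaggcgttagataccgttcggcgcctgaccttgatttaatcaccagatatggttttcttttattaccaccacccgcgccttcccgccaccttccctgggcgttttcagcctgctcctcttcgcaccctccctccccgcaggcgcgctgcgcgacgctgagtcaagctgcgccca
Ctsd: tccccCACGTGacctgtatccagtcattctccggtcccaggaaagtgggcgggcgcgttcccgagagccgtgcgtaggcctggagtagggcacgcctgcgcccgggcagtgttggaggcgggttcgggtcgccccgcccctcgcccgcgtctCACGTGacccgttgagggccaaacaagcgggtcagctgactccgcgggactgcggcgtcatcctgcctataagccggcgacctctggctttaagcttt
Hexa: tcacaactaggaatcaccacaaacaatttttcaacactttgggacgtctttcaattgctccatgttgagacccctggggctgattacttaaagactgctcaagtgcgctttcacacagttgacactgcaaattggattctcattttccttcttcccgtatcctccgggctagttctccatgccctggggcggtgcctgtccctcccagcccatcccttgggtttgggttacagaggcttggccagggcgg
Naglu: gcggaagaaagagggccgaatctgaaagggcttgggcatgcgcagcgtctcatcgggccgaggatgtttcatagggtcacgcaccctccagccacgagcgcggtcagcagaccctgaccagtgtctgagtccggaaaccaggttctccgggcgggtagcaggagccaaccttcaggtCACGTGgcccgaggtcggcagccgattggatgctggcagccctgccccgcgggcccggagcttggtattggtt

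Ctsd held CACGTG at 245 and 98 bases before its start and Naglu at 73 bases, while these letters were not in the windows of Hexa and Psap. CACGTG reads the same on both strands. Of the 44 members with an entry in the promoter table, 13 (29.5%) held it in this window, compared with 6.86% of 27025 genes in the table. These were 9 of 26 soluble members, 2 of 7 membrane proteins and 2 of 11 pump subunits. A longer sequence with CACGTG at its centre was also searched in these windows. It was in 0 of the 44 members, beside 73 (0.27%) of the 27025 genes. It is so rare that 0 of 44 does not show a difference from all genes. Matches of either sequence describe letters only.

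None of the other 9 proteases passed the test, and their fold changes had both signs. Ctsb and Ctsl, the broad endopeptidases cathepsin B and L, and Ctsc, the activator of granule serine proteases, had log2 fold changes of -0.26, -0.33 and -0.29 (edgeR adjusted p 0.192, 0.0896 and 0.137). Ctss, the cathepsin that trims the invariant chain for antigen presentation, and Ctsh, an aminopeptidase, had 0.23 and 0.27 (adjusted p 0.268 and 0.158 in edgeR). The 3 former were lower and the 2 latter higher in 3 of 3 mice. Ctsh was at 139.6, 134.4 and 144.8 CPM in controls and at 181.6, 155.9 and 168.2 CPM with NaCl, so that its groups did not overlap. For Ctsb they did not overlap either, at 14341 to 16296 CPM against 11203 to 13668 CPM. For Ctsl, 26.9% of the exonic bases overlap an antisense gene model, Gm47123. Ctsa, Ctsz, Lgmn and Tpp1 lay between -0.10 and 0.21, and for Ctsz mouse 2 stood apart with 0.65 beside 0.10 and -0.13 in mice 1 and 3.

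Among the glycan-degrading enzymes, Sgsh, a sulfatase of heparan sulfate breakdown like Naglu, had a log2 fold change of -0.40 that did not pass the test in edgeR (adjusted p 0.0685, 0.659 without the block). It was at 63.79, 46.02 and 41.77 CPM in controls and at 54.31, 40.25 and 22.76 CPM with NaCl. The difference was uneven over the mice, with -0.87 in mouse 3 and -0.23 and -0.19 in mice 1 and 2. Of the exonic bases of Sgsh, 21.6% overlap Card14 on the opposite strand. Gusb, beta-glucuronidase, was the soluble member nearest to no change, with 749.7, 763.3 and 784.0 CPM in controls and 837.5, 747.8 and 729.4 CPM with NaCl. Its log2 fold change of 0.01 had a 95% interval of -0.23 to 0.25. The other 6, Gaa, Gla, Glb1, Galc, Man2b1 and Neu1, lay between -0.24 and 0.19.

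Of the 6 lipid-degrading and nucleic acid-degrading enzymes, none passed the test. Asah1, acid ceramidase, had -0.28 on the log2 scale (adjusted p 0.165 in edgeR) and was lower in 3 of 3 mice, as was Pla2g15, a lysosomal phospholipase, with -0.24. Dnase2a, the acid DNase that degrades DNA of engulfed cells, had 0.22 and was higher in 3 of 3 mice, and 30% of its exonic bases overlap Mast1 on the opposite strand. Lipa, Ppt1 and Smpd1 lay between -0.14 and -0.02. The non-enzymatic partners Npc2, which carries cholesterol to NPC1, and Grn, progranulin, had -0.14 and -0.02, next to the fall of Psap.

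The membrane proteins did not pass the test in either direction, and 4 of the 8 had positive and 4 negative fold changes. Cd68, macrosialin, was the most abundant of them per length, with 1109 ± 64.3 RPKM in controls, followed by Lamp1 with 609 ± 15.5 RPKM. Cd68 was at 1317.9, 1479.1 and 1386.9 CPM in controls and at 1196.0, 1582.3 and 1220.8 CPM with NaCl. NaCl replicate 2 was the highest of the 6 libraries and the groups overlapped, with a log2 fold change of -0.08 (95% interval -0.32 to 0.17). Lamp1, nearest to no change, was at 1666.6, 1634.8 and 1584.5 CPM in controls and at 1657.2, 1893.5 and 1476.1 CPM with NaCl. Its log2 fold change was 0.03 (95% interval -0.21 to 0.28). Transport proteins lay at both ends of the range, Npc1, the cholesterol exporter, with -0.21 (95% interval -0.46 to 0.03) and Mcoln1, the cation channel TRPML1, with 0.16 (95% interval -0.08 to 0.41). For Npc1 the groups did not overlap, at 275.2 to 312.3 CPM in controls and 228.3 to 273.3 CPM with NaCl.

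The 15 pump subunits did not pass the test either. The median log2 fold change was -0.16 for the 8 subunits of V1, of which 7 were negative, 0.03 for the 5 of V0 and 0.07 for the 2 accessory proteins. Within V1, Atp6v1h, the regulatory H subunit, Atp6v1g1 and Atp6v1c1, both subunits of the stalks that connect V1 with V0, had -0.27, -0.25 and -0.24 and were lower in 3 of 3 mice (edgeR adjusted p 0.152, 0.223 and 0.217). Atp6v1a and Atp6v1b2, the catalytic A subunit and the B subunit that together form the ATP-hydrolysing head, had -0.07 and -0.03. Atp6v1b2 was at 984.9, 963.2 and 945.6 CPM in controls and at 930.3, 965.8 and 936.2 CPM with NaCl, and its 95% interval ran from -0.27 to 0.21. The lowest subunit per length in controls was Atp6v1h with 17.3 ± 1.75 RPKM, and the highest were Tcirg1 with 185 ± 15.5 RPKM and Atp6v1b2 with 182 ± 3.71 RPKM, which lay within each other's spread.

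In V0, Tcirg1, the a3 form of the large a subunit, was nearest to no change in the pump. It was at 769.7, 901.6 and 881.9 CPM in controls and at 770.3, 1119.9 and 747.2 CPM with NaCl. The log2 fold change was 0.03 (95% interval -0.23 to 0.28), and the mice went apart, with 0.00, 0.31 and -0.24 for mice 1, 2 and 3. Atp6v0c, the main subunit of the proton-carrying ring, was singled out after its values were seen, since it had the widest error (SE 0.15). It was at 231.6, 191.6 and 203.1 CPM in controls and at 202.6, 317.1 and 157.1 CPM with NaCl, with 0.73 on the log2 scale in mouse 2 and -0.19 and -0.37 in mice 1 and 3. Of its 75-base windows, 9.24% also occur in other genes, pseudogenes among them, and for Atp6v1g1 this share was 12.54%. Atp6v0b, Atp6v0d1 and Atp6v0e had 0.16, -0.19 and -0.08, and the accessory Atp6ap1 and Atp6ap2 had 0.22 and -0.08.

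Several pump subunits have alternative genes, and these were on a separate list of 10 genes, of which 5 were tested. With the block, edgeR called 2 of the 5 (40%, beside 8.90% of all genes tested), both lower. Atp6v0a1, the a1 form of the a subunit, fell by 0.58 on the log2 scale in edgeR with the block (SE 0.12, adjusted p 0.00162, 0.072 without the block). It was at 675.4, 694.0 and 660.9 CPM in controls and at 480.0, 425.6 and 456.8 CPM with NaCl, with no overlap. Atp6v0d2, the d2 form of the d subunit known from osteoclasts and macrophages, fell by 0.49 (SE 0.12, adjusted p 0.00797 in edgeR with the block, 0.223 without it). Its levels of 474.8 to 545.9 CPM in controls and 295.8 to 407.6 CPM with NaCl did not overlap. In DESeq2 without the block the adjusted p was 0.00125 for Atp6v0a1 and 0.126 for Atp6v0d2. Of the a subunit RNA measured per length, Atp6v0a1 made up 34.8 ± 1.93% in controls and 26.1 ± 5.04% with NaCl, Tcirg1 62.2 ± 1.84% and 70.1 ± 5.3%, and Atp6v0a2 3 ± 0.161% and 3.81 ± 0.571% (SD, n = 3). Of the d subunit RNA, Atp6v0d2 made up 67.2 ± 2.61% and 62.4 ± 6.48%. The ratio of Atp6v0a1 to Tcirg1, a pair chosen after the values were seen, was lower with NaCl in 3 of 3 mice, by -0.49, -1.02 and -0.29 on the log2 scale. The exact sign-flip test gave a p of 0.25 (two-sided), the smallest it can give for 3 pairs. The ratio of Atp6v0d2 to Atp6v0d1 differed by -0.33, -0.59 and 0.02 (exact p 0.5).

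**Figure D4:**
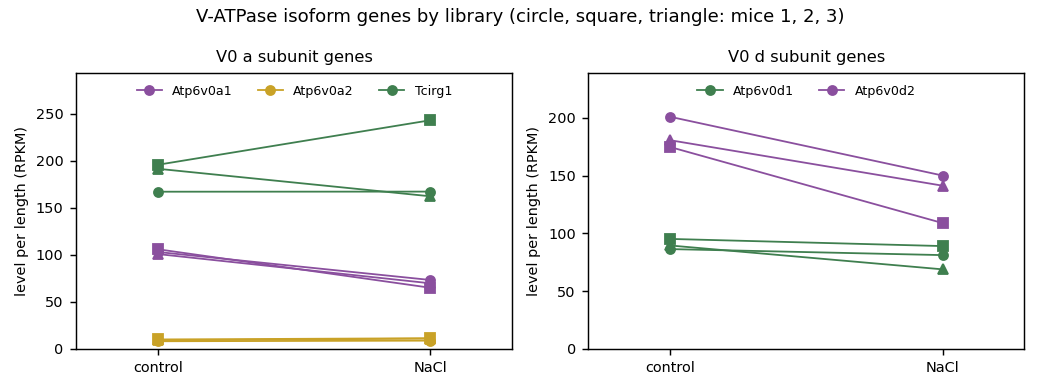
Level per length in RPKM (y axes from 0) of the genes for the a subunit (left) and the d subunit (right) of V0 in control and NaCl libraries (x axes), with 1 line per mouse. The Atp6v0a1 and Atp6v0d2 lines go down in 3 of 3 mice, while those of Tcirg1 go apart.

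Of 69 further genes of the lysosomal pathway on separate lists, 63 were tested. With the block, 3 were higher and 10 lower in edgeR (20.6%, beside 8.90% of all genes tested and 13.4% of the 5757). Without it, edgeR called 1 higher and 0 lower (0.654% of all genes). DESeq2 without the block called 6 of the 63, beside 400 of all genes tested. The 63 reach down to a mean of 0.387 CPM, below the level of the 5757. These lists were chosen with earlier results of these data known, so their shares are not an independent test. Among 26 other hydrolases, 3 rose and 4 fell. The largest rise was that of Ctsk, the collagen-degrading cathepsin K, from 14.9, 17.57 and 15.49 CPM in controls to 40.45, 52.21 and 38.09 CPM with NaCl. Its log2 fold change of 1.44 (SE 0.14) passed in edgeR with the block (adjusted p 5.01e-08) and without it (adjusted p 0.00773). Acp5, tartrate-resistant acid phosphatase, and Fuca1, alpha-fucosidase, rose by 0.62 and 0.36 on the log2 scale (edgeR adjusted p 0.013 and 0.0498, without the block 0.345 and 0.322). Ctsk and Acp5 are also known from osteoclasts, and the sum of 5 tested osteoclast markers is given above. Of these 5, Itgb3 fell by 0.64 on the log2 scale (edgeR adjusted p 0.0199, without the block 0.304) and 0 rose. Nfatc1, Dcstamp, Mmp9 and Ocstamp had 0.33, 0.21, -0.05 and -0.15 and did not pass.

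Hyal1, a lysosomal hyaluronidase, fell by 1.13 on the log2 scale (edgeR adjusted p 2.02e-04, without the block 0.139), from 11.4 to 16.21 CPM in controls to 4.072 to 8.793 CPM with NaCl. Arsb and Galns, sulfatases of glycosaminoglycan breakdown, fell by 0.49 and 0.48 (edgeR adjusted p 0.0077 and 0.00856, without the block 0.153 and 0.2). In DESeq2 without the block, Hyal1 passed (adjusted p 0.0217), and Arsb and Galns did not (adjusted p 0.0567 and 0.112).

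Among 21 other membrane proteins, 0 rose and 4 fell (19.05%, beside 8.90% of all genes tested). These were Slc11a1, the metal transporter NRAMP1 of phagosomes, Litaf, a protein of late endosomes and lysosomes, Slc17a5, the sialic acid transporter, and Slc29a3, a nucleoside transporter, by 0.59, 0.50, 0.47 and 0.40 on the log2 scale (edgeR adjusted p 0.00151, 0.00618, 0.0147 and 0.0315). Without the block, their adjusted p in edgeR were 0.0719, 0.158, 0.329 and 0.401, and in DESeq2 0.00181, 0.0488, 0.302 and 0.439. Slc11a1 was at 405.0, 449.8 and 442.0 CPM in controls and at 305.9, 286.4 and 271.9 CPM with NaCl, with a wide gap between the groups.

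The 7 genes of hydrolase sorting and activation had no member past the threshold in edgeR. Among them, the mannose-6-phosphate receptors M6pr and Igf2r had log2 fold changes of 0.03 and -0.07. At an unadjusted p under 0.05 in edgeR, 3 of the 7 passed (42.9%, beside 22.1% of all genes and 29.2% of the 5757). The 4 TFE transcription factors had no member past the threshold either, and 2 (50%, beside the same shares) passed at an unadjusted p under 0.05. Tfeb was at 63.77 to 70.97 CPM in controls and 62.04 to 68.53 CPM with NaCl, and Tfe3 at 158.3 to 171.5 and 168.4 to 174.2 CPM, with log2 fold changes of -0.04 (95% interval -0.29 to 0.20) and 0.05 (95% interval -0.18 to 0.29). Mitf and Tfec had -0.27 and -0.45 (edgeR adjusted p 0.165 and 0.0821) and were lower in 3 of 3 mice. RNA levels of these factors do not show their activity, which is set by their location in the cell.

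**Figure D5:**
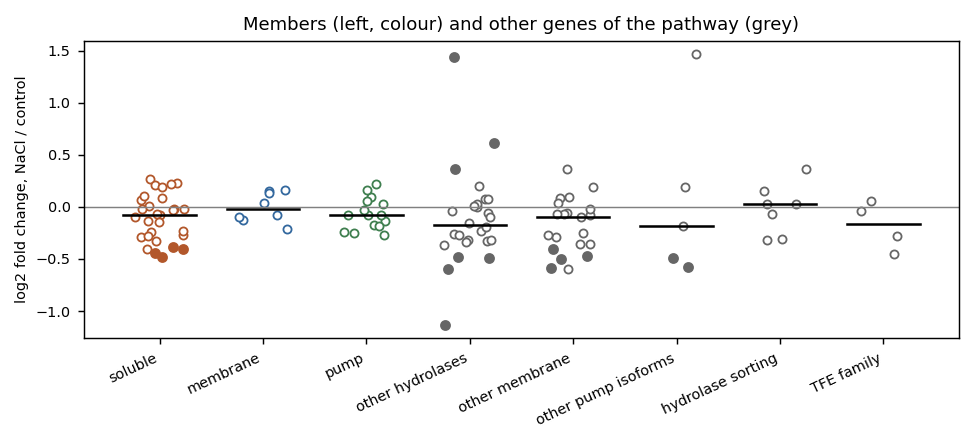
The log2 fold change of NaCl against control (y axis) of the 52 members in 3 groups (colour) and of the 63 other genes of the pathway in 5 lists (grey, x axis), with a black line at each median and filled points at an adjusted p under 0.05 in edgeR with the block. Among the other genes, 13 points are filled, and Ctsk at 1.44 and Hyal1 at -1.13 lie farthest from 0 among them.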

How the data were processed

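RNA of BMDMs from 3 mice was measured as control and after 62 mM excess NaCl. Per the methods and the submitters' processing notes, 75-base single-end reads were trimmed with fastp 0.20.0 and aligned and counted per gene with STAR 2.7.10b, and SAMtools 1.16.1, CASAVA 1.8.2, R 4.3.1 and DESeq2 1.40.2 are named too. Counting took no account of strand, so reads of overlapping genes on opposite strands cannot be told apart. The authors deposited a raw count per gene and a normalized signal, which equalled the raw count divided by 1 size factor per library (0.434 to 2.08). The raw counts were used, and the normalized table served for gene symbols. Since the methods pair mm10 with GENCODE vM32, an annotation of a different build, genes are placed by chromosome. Exonic lengths, overlaps and 75-base windows come from GENCODE M21, where all 52 members were found by identifier, and promoters from RefSeq (GRCm38.p6). For 8 members, at least 10% of the exonic bases overlap another gene model. Besides Ctsd, Ctsl, Dnase2a, Hexa and Sgsh, these are Ctsa (17.4%), Ctsb (12.8%) and Atp6v0b (11.85%).

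The test was edgeR 4.0.16 (TMM, glmQLFit, glmQLFTest) with the mouse as a block, on the 15903 genes whose counts summed to 10 or more. Benjamini-Hochberg adjustment ran over all of them, and the threshold was 0.05. The block was used because the labels give each mouse 1 control and 1 NaCl library. The methods of the study name no term for the mouse, so the fit without it stands beside each call. Deviations from the group means correlated across genes at 0.65, 0.291 and 0.332 for libraries of the same mouse, and at -0.559 to 0.25 for the other pairs. The 0.25 was that of control replicate 3 with NaCl replicate 2. Deviations sum to 0 over the 3 libraries of a group, so part of this contrast is built in. CPM are per TMM-scaled library size, and RPKM are CPM per kilobase of exon. Intervals are 95% intervals per gene, not adjusted for the number of genes. Ratios per mouse use a prior count of 2.

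Values in every library are given for members past the threshold, for the member nearest to no change and the most abundant member of each group. From the other lists, genes past the threshold are named, up to the 4 of largest fold change a list, and all 4 TFE genes. One gene of the list of other hydrolases is not reported here. Further genes named, such as Fuca1, Arsb, Galns and single markers, were chosen after their values were seen. The members and lists were chosen with earlier results of these data known. Alternatives were the fit without the block, DESeq2 1.42.0 with and without it, filterByExpr, a minimum total count of 1, median-ratio and total count scaling, a correction for GC content and length, thinning to 4088065 counts, and leaving out each mouse. The scripts were tested on simulated data. R 4.3.3, Python 3.11.15, pandas 2.3.3, numpy 2.4.6 and matplotlib 3.10.9 were used. The uptake, migration, flow cytometry and diet experiments were not analysed here.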

Additional observations from a re-analysis of the deposited data

How the results depend on the processing

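With the replicate block, edgeR called 0 soluble members higher and 4 lower, and 732 genes of all higher and 684 lower. Soluble members lower numbered 0 without the replicate block, 0 in DESeq2 without the block, 7 with a minimum total count of 1, 2 with filterByExpr, 1 (Psap) after thinning and 8 with GC content and length corrected together with the block, and 0 to 6 when 1 mouse was left out (0 without mouse 1 or mouse 3, 6 without mouse 2). The correction called 1 soluble member higher (Ctss), and leaving out a mouse 0 to 1 (Ctsh without mouse 2). Genes of all called higher and lower numbered 76 and 28 without the block, 452 and 354 in DESeq2 with it, 245 and 155 in DESeq2 without it and 276 and 180 after thinning. With a minimum total count of 1 they numbered 747 and 906, with filterByExpr 695 and 553, and with the correction 1084 and 947. They ranged from 469 to 758 higher and from 417 to 661 lower when 1 mouse was left out. The membrane and pump counts were 0 in all 12 alternatives. Psap, Naglu, Ctsd and Hexa were lower in all 12 and passed the threshold in 8, 7, 5 and 6, and Ctsk passed in 12. The cause of these differences was not tested.

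Fold changes were compared over the alternatives for only some of the members. Among those compared, the sign changed for 5 members near 0, and for Tfeb of the TFE list, none of which passed the test. Members not compared in this way include Grn, Ppt1 and Glb1, each at -0.02 in edgeR with the block, so their sign may change too. Gusb had -0.0079 with a minimum total count of 1, -0.0211 with the correction and -0.0558 to 0.0731 when 1 mouse was left out. Tcirg1 had -0.0267 with the correction, and Tfeb 0.17 after thinning. With 1 mouse left out, Lamp1 ranged from -0.0461 to 0.11, Tcirg1 from -0.11 to 0.17, Atp6v0c from -0.27 to 0.28, Atp6v1b2 from -0.0396 to 0.0057 and Tfeb from -0.11 to 0.0353. NaCl replicate 3 was the shallowest library, with 4088065 counts, and the part of its depth in the values of mouse 3 was not tested.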
